A study of Mus musculus with 5 samples.

Results

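The antimicrobial defence genes examined here were Defb14, Defb1, Lcn2, S100a8, S100a9, S100a7a, Slpi and Spink5. These 8 genes were chosen by name, with their levels in these libraries already known, so their values are descriptions and nothing was tested on them. All 8 were found by symbol among the 31053 genes counted in the day 7 and tissue libraries and among the 32285 genes counted in the day 11 library. They were followed in 5 single-cell RNA-seq libraries made from the submandibular salivary gland of C57BL/6 mice.

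Mouse salivary gland organoids (mSGOs) are epithelial structures that dissociated gland cells form in Matrigel, a gel of basement membrane proteins. For each organoid group, cells of 4 animals were combined, and the animals were 8 to 12 weeks old where an age is given, which it is not for the day 11 culture. All cultures were kept in WRY medium, which holds EGF, FGF2, insulin, dexamethasone, Y27632, and media conditioned by R-spondin1 and Wnt3a. The groups were unirradiated 7-day mSGOs (control), 7-day mSGOs given 7 Gy of photons on day 5, 7-day mSGOs given 7 Gy of protons on day 5, unirradiated 11-day mSGOs and unirradiated, freshly isolated tissue. The 11-day mSGOs came from other animals and were processed in a separate run. Live cells, sorted as negative for propidium iodide, were loaded for droplet-based 3′ counting of unique molecular identifiers (UMIs), and each group held 1 library.

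Epithelia that face the outside carry a chemical barrier against microbes beside the physical one. Beta-defensins such as Defb1 and Defb14 are small cationic peptides that disrupt microbial membranes, Defb1 being known for steady and Defb14 for inducible expression. Lcn2 (lipocalin-2) binds the siderophores with which bacteria collect iron, S100a8 and S100a9 form calprotectin, which withholds zinc and manganese, and S100a7a belongs to the psoriasin family of S100 proteins. Slpi and Spink5 encode inhibitors of serine proteases, of which Slpi is secreted into saliva and Spink5 restrains kallikreins in stratified epithelium.

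The filtered libraries held 6494 control, 15610 photon, 15325 proton, 9484 day 11 and 1402 tissue barcodes, with 5932095 UMIs in the tissue library and 15804289 to 32077807 in the 4 organoid libraries. Median UMIs per barcode were 898.5 to 1049 at day 7, 3025 at day 11 and 2385.5 in tissue. Barcodes in which Malat1, a nuclear transcript, took 1% or more of the UMIs made up 8.95% to 15.97% of the day 7 barcodes, 98.8% of the day 11 barcodes and 11.3% of the tissue barcodes. A total of 241 barcode sequences occurred in more than 1 library, at most 69 between any pair. The organoid libraries carried all 5 basal duct and all 6 luminal duct markers examined, whereas acinar markers summed to 0.0403 to 5.71 CPM (UMIs of a gene per 1000000 UMIs of the library) in organoids and to 42350 CPM in fresh tissue. Neutrophil markers (8 genes) summed to 6 to 20 UMIs per organoid library, with Csf3r and Retnlg at 0 in all of them, and 7 macrophage and monocyte markers summed to 4.27 to 26.2 CPM, led by Cd68, with C1qa and C1qb at 0. Since every group was 1 library, no difference could be tested, and the 95% intervals given with values cover counting error only.

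Positions are from the RefSeq annotation of GRCm38.p6. Defb14 (chromosome 8, 19160244 to 19195309) and Defb1 (chromosome 8, 21776555 to 21795185) share a chromosome, as do Lcn2 (chromosome 2, 32384637 to 32387739) and Slpi (chromosome 2, 164354070 to 164356507). S100a7a (chromosome 3, 90651925 to 90658130), S100a8 (90669071 to 90670034) and S100a9 (90692630 to 90695721) are neighbours. Promoter sequences were matched by symbol in the RefSeq table for 5 of 8 members (Lcn2, S100a8, S100a9, S100a7a and Slpi). The 250 bases before the transcription start are shown for the 4 members with a match to one of 4 motifs, because C/EBP factors were among the measured regulators of this gene class. Capitals mark matches, on either strand, to the C/EBP motif TTNNGNAA or the TATA box TATAAA.

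Lcn2 (chr2:32387740-32387989, minus strand): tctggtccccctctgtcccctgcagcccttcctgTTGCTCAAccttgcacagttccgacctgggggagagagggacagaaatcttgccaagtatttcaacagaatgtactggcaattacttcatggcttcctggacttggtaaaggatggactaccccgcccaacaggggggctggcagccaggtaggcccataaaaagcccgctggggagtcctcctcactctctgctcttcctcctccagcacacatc

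S100a8 (chr3:90668821-90669070, plus strand): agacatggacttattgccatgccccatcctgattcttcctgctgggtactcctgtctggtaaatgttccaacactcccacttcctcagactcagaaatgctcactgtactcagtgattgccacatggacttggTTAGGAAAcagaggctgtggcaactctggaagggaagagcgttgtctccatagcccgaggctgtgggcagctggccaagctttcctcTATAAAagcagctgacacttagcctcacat

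S100a9 (chr3:90695722-90695971, minus strand): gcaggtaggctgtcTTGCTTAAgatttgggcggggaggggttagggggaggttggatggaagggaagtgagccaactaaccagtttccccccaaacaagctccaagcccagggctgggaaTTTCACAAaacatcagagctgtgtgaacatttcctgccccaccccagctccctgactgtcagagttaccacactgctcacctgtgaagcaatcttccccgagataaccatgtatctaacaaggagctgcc

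Slpi (chr2:164356508-164356757, minus strand): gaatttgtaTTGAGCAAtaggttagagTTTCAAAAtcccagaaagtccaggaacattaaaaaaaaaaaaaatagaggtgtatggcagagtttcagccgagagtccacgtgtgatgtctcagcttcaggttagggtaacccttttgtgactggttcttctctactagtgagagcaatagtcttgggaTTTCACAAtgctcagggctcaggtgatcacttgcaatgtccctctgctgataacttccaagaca

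The C/EBP motif occurred once in the Lcn2 and S100a8 stretches, 2 times in S100a9 and 3 times in Slpi, against at least 1 match in 36.9% of all 32851 RefSeq promoters of the same length. The TATA box stood 30 bases before the start of S100a8 only, and 12.4% of all promoters hold these letters. None of the 5 stretches held the AP-1 motif TGANTCA or the NF-kB motif, which 6.75% and 7.25% of all promoters hold. The S100a7a stretch (chr3:90654052-90654301, plus strand) held none of the 4 motifs. It lies within the span of the gene given above, and the bases before 90651925 were not searched. These matches describe letters and not binding.

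Among the defensins, Defb14 separated the irradiated libraries. Defb14 was counted at 83.1 CPM in the control (1314 UMIs), 143 CPM after photons (3633 UMIs), 61.8 CPM after protons (1532 UMIs) and 1.25 CPM at day 11 (40 UMIs), and no UMI was found in tissue. The order was therefore photon, control, proton and day 11, and no 2 of these intervals touched. The log2 ratio over the control, taken with 1 CPM added to both levels, was 0.78 (0.69 to 0.87) for photons and -0.42 (-0.53 to -0.32) for protons. Proton against photon gave -1.20 (-1.29 to -1.11), and no other gene of the 4387 compared had a lower ratio. A UMI of Defb14 was found in 13.8% (control), 16.9% (photon) and 7.90% (proton) of barcodes, and in 7.70%, 13.3% and 5.94% once barcodes were thinned to 1000 UMIs.

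Defb1 behaved unlike Defb14. Its level was 479 CPM in the control (468 to 490), 484 CPM after photons (475 to 492), 505 CPM after protons (496 to 513) and 306 CPM at day 11, with 0 UMIs in tissue. The control and photon intervals overlapped, and the largest difference between the day 7 libraries was 1.05-fold. At day 11 Defb1 was 1.56 times lower than in the day 7 control. A UMI of Defb1 was present in 45.0% to 50.1% of day 7 barcodes and in 46.7% of day 11 barcodes.

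Lcn2 was low in the 7-day and high in the 11-day organoids. It was counted at 33.7 CPM in the control, 69.6 CPM after photons, 45.6 CPM after protons, 2709 CPM at day 11 and 4.21 CPM in tissue. Photons gave a log2 ratio of 1.03 (0.89 to 1.17) and protons one of 0.43 (0.28 to 0.57) over the shared control. At day 11 the 86906 UMIs of Lcn2 corresponded to a level 80.9 times that of the day 7 control, a log2 ratio of 6.30 (6.18 to 6.42) that exceeded those of 99.8% of the genes compared. A UMI of Lcn2 was found in 5.17% of control barcodes and in 82.4% of day 11 barcodes, and in 2.89% and 63.1% after thinning to 1000 UMIs. Among barcodes with 1% or more Malat1 UMIs, the levels were 28.8 CPM in the control and 2710 CPM at day 11.

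The 3 S100 members were scarce in organoids. S100a7a was counted at 18.5 CPM in the control, 45.8 CPM after photons, 41.6 CPM after protons and 0.842 CPM at day 11, with 0 UMIs in tissue. It was the 1 member above 1.5-fold in both irradiated libraries, with log2 ratios of 1.26 (1.08 to 1.44) for photons and 1.12 (0.94 to 1.31) for protons, and these lay above 99.8% and 99.5% of all genes compared. S100a8 was counted at 7.85 CPM in the control, 12.7 CPM after photons, 8.67 CPM after protons and 6.55 CPM at day 11. The photon interval of S100a8 (11.4 to 14.2) lay above the other 3, the control interval overlapped those of protons and day 11, and these last did not touch each other. S100a9 was counted at 19.6 CPM, 23.5 CPM, 17.9 CPM and 9.54 CPM in the same libraries. Its control interval (17.4 to 21.9) overlapped both irradiated ones, and its day 11 interval lay below all 3.

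Both protease inhibitors were highest after photons. Slpi was counted at 293 CPM in the control, 357 CPM after photons, 303 CPM after protons, 112 CPM at day 11 and 1.85 CPM in tissue. The photon library held 1 barcode with 641 of its 9056 Slpi UMIs, and the log2 ratio of photons over control was 0.29 with that barcode and 0.23 when the barcode richest in Slpi was left out of each library. Over 13 other settings this ratio ran from 0.20 to 0.84, the latter among barcodes with 1% or more Malat1 UMIs, and was within 1.5-fold in 11. The ratio of protons over control was 0.05, and 0.71 among barcodes with at least 2500 genes. Spink5 was counted at 80.4 CPM in the control, 134 CPM after photons, 101 CPM after protons and 24.3 CPM at day 11, and had 0 UMIs in tissue. Its log2 ratios over the control were 0.73 (0.63 to 0.82) for photons and 0.32 (0.23 to 0.42) for protons, and no 2 of the day 7 intervals touched. When each barcode was given equal weight, these ratios were 0.40 and -0.0075.

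**Figure D1:**
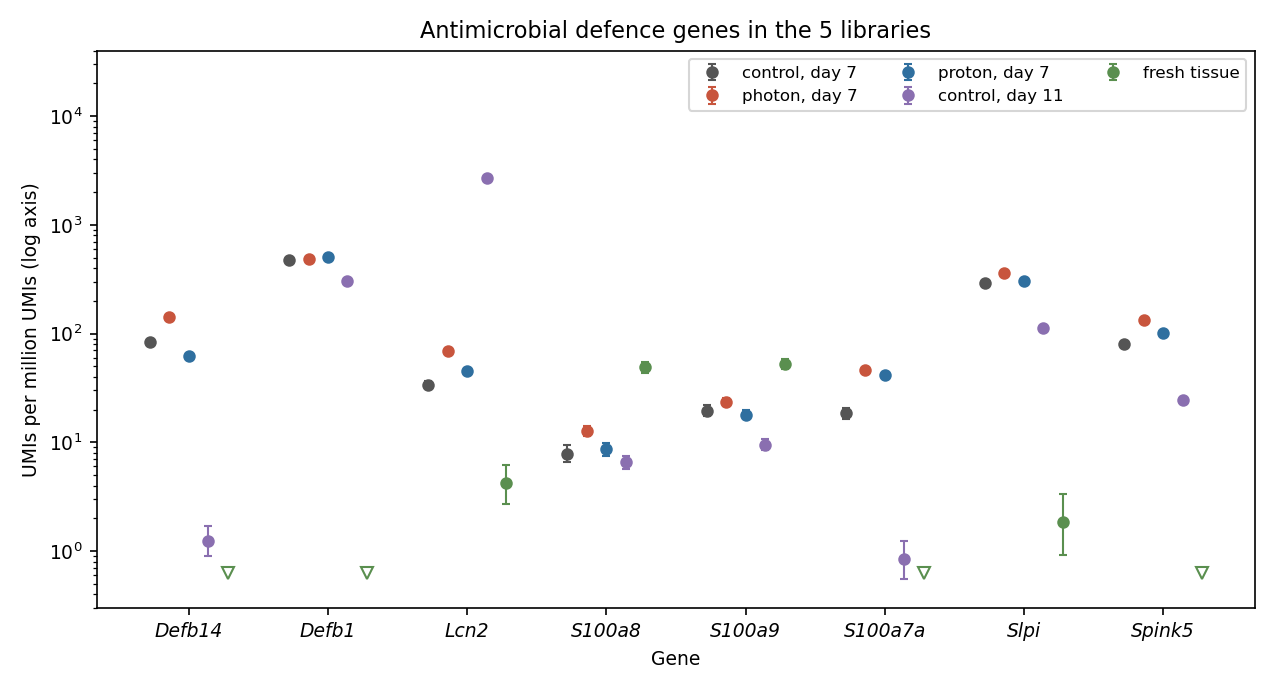
Levels of the 8 genes in CPM (log axis) in the 5 libraries, 1 library per group. Points are levels, bars are exact Poisson 95% intervals, and open triangles mark the upper limit where no UMI was found. Lcn2 stands at 2709 at day 11 against 33.7 in the day 7 control, while Defb14 and S100a7a stand near 1 at day 11.

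To compare irradiation with no irradiation, each irradiated library was set against the control, so that both comparisons share that library. In the photon library 5 of 8 members were at least 1.5-fold higher (S100a7a, Lcn2, Defb14, Spink5 and S100a8) and 0 were lower. Of all 4369 genes with at least 200 UMIs and 20 CPM, 2.63% were at least 1.5-fold higher and 1.53% lower. The median log2 ratio was 0.68 over the members and 0.08 over all genes. Of the 8 members 7 passed these minimums, all but S100a8. The 5 became 3 when each barcode was given equal weight, a setting for which the share of all genes is not given. Cornifying squamous markers (10 genes), with which several members shared a cluster as described further on, summed to 1968 CPM in the control, 1552 CPM after photons and 1261 CPM after protons, and their part in these ratios was not tested.

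In the proton library 1 of 8 members (S100a7a) was at least 1.5-fold higher and 0 were lower, against 3.05% and 1.52% of 4355 genes, whose minimums 6 members passed. The median log2 ratio was 0.10 over the members and 0.10 over all genes, and relative to the latter S100a7a stood at 1.02, Lcn2 at 0.33, Spink5 at 0.22, S100a8 at 0.03, Slpi at -0.05, Defb1 at -0.02, S100a9 at -0.22 and Defb14 at -0.52. Where at least 2500 genes were required per barcode, 193 control and 218 proton barcodes were left. The count of higher members was then 4, given without the share of all genes at that setting. Defb14 stood at 0.43 in place of -0.42, S100a9 at 1.27 in place of -0.12 and Lcn2 at -0.51 in place of 0.43.

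The direct comparison of the radiation types gave lower levels after protons than after photons for 7 of 8 members. The median log2 ratio was -0.39 over the members and 0.02 over all genes. The intervals of these 7 lay below 0, but the share of all genes with such an interval was not counted. Defb14 and Lcn2 were past 1.5-fold (log2 ratios of -1.20 and -0.60), where 0.501% of 4387 genes were that much lower and 0.547% that much higher, and 7 members passed the minimums. S100a8 (-0.51), Spink5 (-0.40), S100a9 (-0.37), Slpi (-0.24) and S100a7a (-0.14) followed, and Defb1 was the exception at 0.06 (0.03 to 0.10). Lcn2 lay close to the limit and was within 1.5-fold under 6 of 13 other settings.

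**Figure D2:**
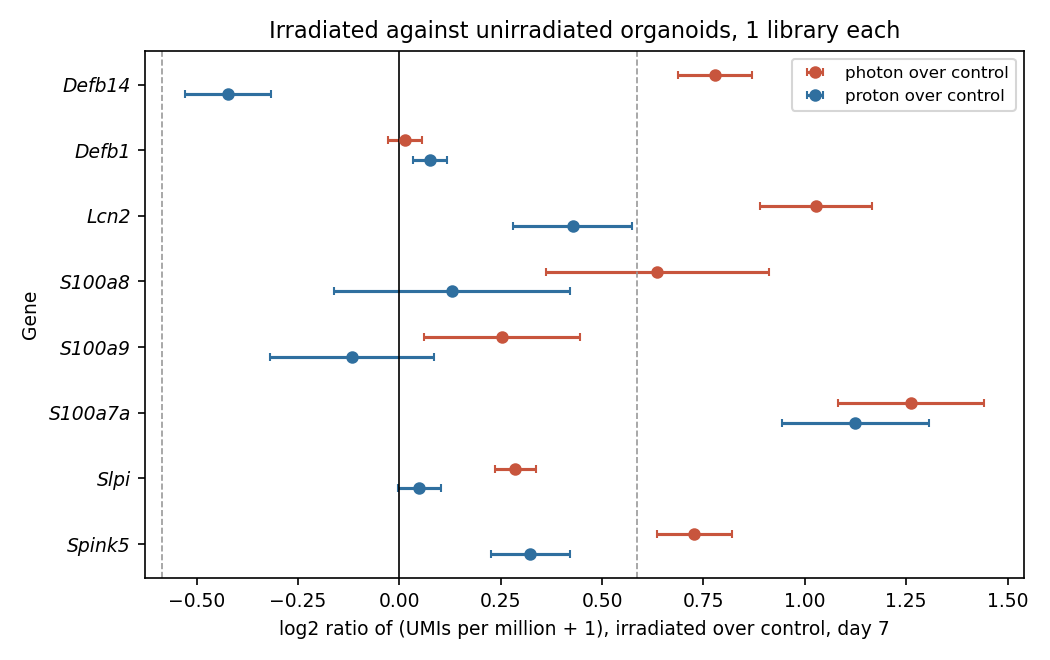
Log2 ratios of each irradiated library over the control at day 7, after adding 1 CPM to both levels, for the 8 genes. Points are ratios, bars are 95% intervals for counting error, and dashed lines mark 1.5-fold. Photon points lie to the right of proton points for 7 genes, and Defb14 lies on opposite sides of 0 (0.78 and -0.42).

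To describe organoid age, the 11-day library was set against the 7-day control. Lcn2 was the 1 member at least 1.5-fold higher, where 62.2% of 6625 genes were higher, and 6 members were at least 1.5-fold lower, where 9.57% of genes were. Of the 8 members 5 passed the minimums behind these shares. The median of all genes was shifted by 0.97 between these libraries. Relative to that shift Lcn2 stood at 5.33, S100a8 at -1.19, Defb1 at -1.61, S100a9 at -1.93, Slpi at -2.34, Spink5 at -2.65, S100a7a at -4.37 and Defb14 at -6.19. Animals, run, counting software version and share of barcodes with Malat1 all differ between these libraries and cannot be told apart from days in culture. Cornifying squamous markers summed to 1968 CPM in the control and 263 CPM at day 11, and basal duct markers to 8543 and 4078 CPM, and their part in the lower levels was not tested.

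The S100 pair depended on single barcodes at day 11. In that library 1 barcode held 105 of the 210 S100a8 UMIs and 154 of the 306 S100a9 UMIs, together with 6 S100a7a and 110 Slpi UMIs. Without the richest barcode of each library the log2 ratios were -1.01 for S100a8 and -1.80 for S100a9, in place of -0.22 and -0.96, and among barcodes with at least 2500 genes they were 2.90 and 2.77. A UMI of S100a8 was present in 0.401% of day 11 barcodes, against 1.80% in the control.

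In fresh tissue most members were lower than in the day 7 control, as were most of all genes compared. Defb14, Defb1, S100a7a and Spink5 had 0 UMIs, which allows levels of up to 0.506 CPM at a floor of 3 counts and a share of barcodes with a UMI of up to 0.214% of 1402, which does not limit the share of cells that express the gene. Against that floor Defb14 was at least 164-fold, Defb1 at least 947-fold, S100a7a at least 36.7-fold and Spink5 at least 159-fold lower than in the day 7 control. Slpi was 158 times and Lcn2 7.99 times lower, with log2 ratios of -6.69 and -2.73 beside a median of -1.79 over all genes. Basal duct markers summed to 32.9 CPM in tissue and 8543 CPM in the control, and cornifying squamous markers to 7.92 and 1968 CPM. Their part in the lower levels was not tested. The filter kept 1402 of 13547 deposited tissue barcodes, with a median of 278 genes. In all, 6 of 8 members were at least 1.5-fold lower and 2 higher, where 86.6% of 4250 genes were lower and 6.28% higher and the median of all genes was -1.79. Of the members 7 passed the minimums.

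The 2 higher members in tissue were S100a8 (49.2 CPM, 292 UMIs) and S100a9 (52.4 CPM, 311 UMIs). A single barcode of 3408 UMIs held 290 of the S100a8, 303 of the S100a9 and 23 of the 25 Lcn2 UMIs. That barcode also held 203 UMIs of Retnlg, 3 of Il1r2, 2 of Cxcr2 and 1 of Csf3r, 4 of the 8 neutrophil markers, and 0 of Ly6g, Mpo, Elane and Ngp. Without the richest barcode S100a8 was at 0.337 CPM and S100a9 at 1.35 CPM, both below the day 7 control.

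To see where in the organoids the members were counted, barcodes were clustered without the members and without the other antimicrobial genes. The merged day 7 libraries (37429 barcodes) gave 8 clusters. Cluster 7 (215 barcodes) carried 7 of 10 cornifying squamous markers at least 2-fold above the other barcodes (Krt10, Krt13, Sprr1b, Sprr3, Krtdap, Sbsn and Tgm1) and is called cornifying squamous-like. The cluster also carried all 3 markers examined of the study's stem/progenitor I cells (Cd164, Sox9 and Cd24a), and is named after the list with most markers. It was led by Sprr1a, 2010109I03Rik, Krt23 and Klk10, and Sprr2e and Sprr2d, like Sprr1a small proline-rich proteins of the cornified envelope, were among its 10 leading genes. Cluster 8 (82 barcodes) carried all 6 cycling markers and is called cycling-like. Cluster 5 (1257 barcodes, led by 4631405K08Rik, Cp and Ptprz1) carried 3 of 5 pro-acinar markers (Aqp5, Alcam and Slc12a2) and is called pro-acinar-like, and the other 5 clusters stayed unnamed. Of these, clusters 1, 2 and 3 held 43.15%, 33.84% and 12.26% of the barcodes, with median Malat1 shares of 0.18%, 0.17% and 0.063%. No cell type marker was 2-fold higher in them. Defb14 stood there at 89.9, 95.8 and 99.6 CPM in the control and at 160.8, 156.0 and 155.6 CPM after photons. After protons it stood at 68.85, 68.36 and 69.04 CPM. What free RNA in the droplets adds to these levels was not tested.

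The cornifying squamous-like barcodes held 3.01% of the day 7 UMIs but 26.1% of those of Spink5, 16.6% of Defb14, 15.1% of Slpi and 7.56% of S100a9. Spink5 was counted there at 943 CPM against 82.6 CPM in the other barcodes, Defb14 at 541 CPM against 84.5 CPM, and Slpi at 1613 CPM against 281 CPM. S100a9 stood at 51.5 CPM against 19.5 CPM and S100a7a at 60.0 CPM against 37.0 CPM. These 5 members were at least 1.5-fold above the average of all barcodes (1 CPM added to both), as were 21.0% of 4618 genes in this cluster, and no member was so in another cluster. Against the other barcodes in place of the average, S100a9 (29.3 against 17.7 CPM) and Slpi (440 against 285 CPM) were also past 1.5-fold in cluster 3. At a coarser resolution of 0.4 no cluster of these barcodes held a member 1.5-fold above the average. Defb1 had its highest level in cluster 4 (639 CPM, led by Adm and Malat1) and its lowest in the cycling-like cluster (200 CPM), and stood at 439 CPM in the cornifying squamous-like cluster. Defb14, Slpi and Spink5 differed 35.2-fold, 18.3-fold and 88.8-fold between the lowest and the highest cluster, against 3.20-fold for Defb1 and 3.32-fold for Lcn2.

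**Figure D3:**
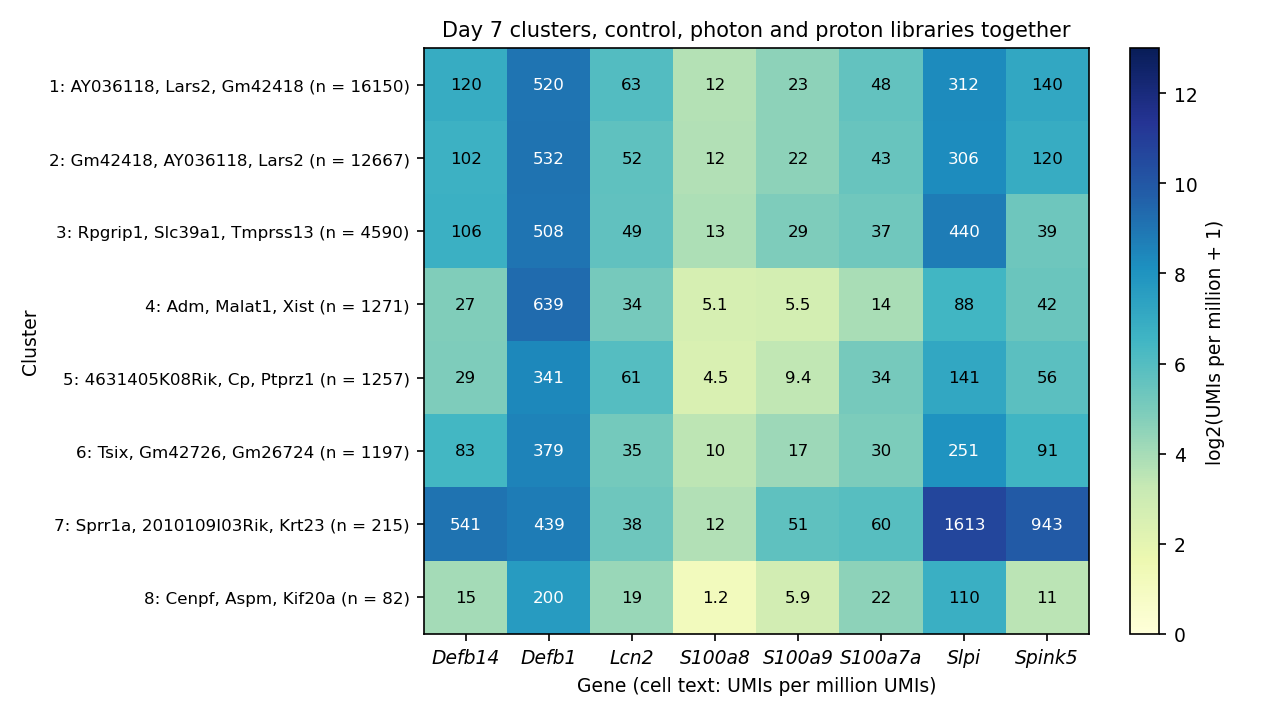
Levels of the 8 genes in 8 clusters of day 7 barcodes, the 3 day 7 libraries together. Rows are clusters with their leading genes and number of barcodes, cell text gives CPM, and colour gives the log2 of that level plus 1. Defb14, Slpi and Spink5 share their highest value in cluster 7.

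Within the cornifying squamous-like cluster the 3 libraries contributed 80 control, 71 photon and 64 proton barcodes, with medians of 7862, 9304 and 9510 UMIs. Defb14 was counted at 360 CPM in the control (244 UMIs), 878 CPM after photons (598 UMIs) and 368 CPM after protons (230 UMIs). Photons gave a log2 ratio of 1.28 (1.066 to 1.502) and protons one of 0.03 (-0.23 to 0.30), so the photon library stood apart and the other two overlapped. Spink5 was counted at 604, 1186 and 1046 CPM in the same order, with log2 ratios of 0.97 (0.80 to 1.15) for photons and 0.79 (0.61 to 0.97) for protons. S100a7a had 6, 76 and 37 UMIs, or 8.86, 112 and 59.3 CPM, and log2 ratios of 3.51 (2.40 to 4.78) and 2.61 (1.43 to 3.92). These UMIs came from 4, 19 and 14 barcodes, and the richest barcode held 3, 23 and 7 of them. Without it the levels were 4.52, 80.3 and 48.9 CPM. Both irradiated libraries were thus above the control for Spink5 and S100a7a.

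Slpi in this cluster stood at 795 CPM in the control, 2343 CPM after photons and 1704 CPM after protons. The barcode with 641 Slpi UMIs was one of the 71 photon barcodes, and without the richest barcode of each library the levels were 559, 1447 and 1575 CPM. Both irradiated levels stayed above the control level, while the order of photons and protons turned around. Defb1 differed little within the cluster, at 468, 424 and 423 CPM with overlapping intervals, while S100a9 stood at 48.7, 51.4 and 54.5 CPM and S100a8 at 8.86, 16.2 and 11.2 CPM, both also with overlap. Lcn2 was counted at 25.1, 67.5 and 20.8 CPM from 17, 46 and 13 UMIs, of which 1 barcode held 9, 13 and 4.

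**Figure D4:**
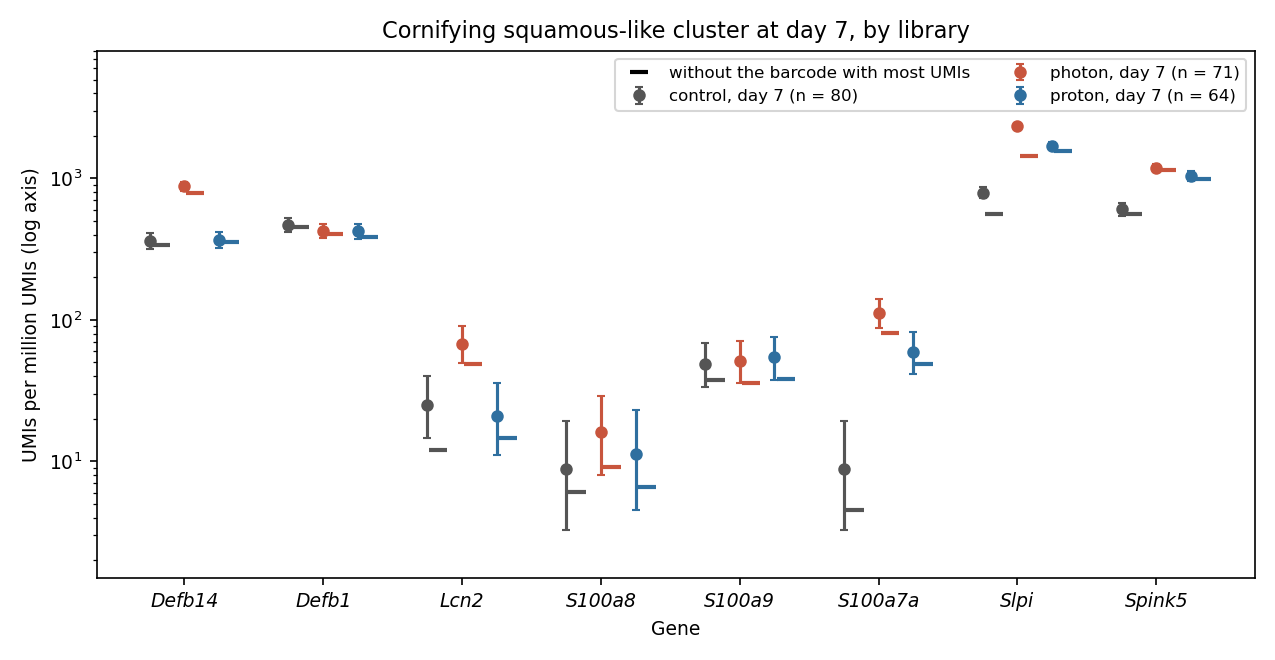
Levels of the 8 genes (CPM, log axis) in the cornifying squamous-like day 7 cluster, by library. Points are levels with exact Poisson 95% intervals, and dashes are levels without the barcode that holds most UMIs of the gene. Defb14 stands at 878 after photons against 360 and 368 in the control and proton libraries.

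The 3977 day 7 barcodes with 1% or more Malat1 UMIs were also clustered alone, a choice made after the data had been seen. They gave 10 clusters, of which cluster 7 (194 barcodes, 8.06% of UMIs) carried the same 7 cornifying squamous markers and held 63.4% of the Spink5, 60.1% of the Defb14 and 51.1% of the Slpi UMIs. Lcn2 was highest elsewhere, in cluster 4 (113 CPM, 417 barcodes, led by Cxcl17 and Lgi2), which held 38.4% of its UMIs. S100a7a was highest in cluster 10 (78.8 CPM, 61 barcodes), with an interval that overlapped that of cluster 7 (62.4 CPM). Cluster 10 carried 3 of 6 luminal duct markers (Krt8, Krt19 and Epcam, but not Krt18, Krt7 and Cldn4) and is called luminal duct-like. It was led by the interferon-response genes Rsad2, Ifit3 and Ifi44, and Fn1, Vim and Col11a1 were also among its 10 leading genes. Defb1 was highest in cluster 6 (665 CPM) and cluster 2 (648 CPM), with overlapping intervals.

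Lcn2 in cluster 4, where it was highest, had its lowest level after protons and its highest after photons, and none of the intervals touched. It was counted at 98.8 CPM in the control (126 UMIs in 16 of 141 barcodes), 193 CPM after photons (237 UMIs in 37 of 150) and 40.2 CPM after protons (44 UMIs in 17 of 126). The log2 ratio over control was 0.96 (0.64 to 1.28) for photons and -1.28 (-1.79 to -0.78) for protons. Over all barcodes of the libraries the proton ratio was 0.43. The richest control, photon and proton barcodes held 25, 27 and 11 of these UMIs. Without them the levels were 79.7, 173 and 30.3 CPM. The intervals treat UMIs of the same barcode as independent. Elsewhere the proton level was below the control level only in cluster 9, on 1 and 2 UMIs. In the remaining clusters it was above, as in cluster 1 with 30.5 against 7.88 CPM (68 and 14 UMIs).

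In the 11-day library, clustered alone, 1 of 12 clusters held 7 of the 8 members at least 1.5-fold above the average of all barcodes, all but Defb1, as it did 8.49% of 6728 genes. Of these 7, Defb14 and S100a7a did not pass the minimum of 200 UMIs set for that share. This cluster 9 (199 barcodes, 3.69% of UMIs) was led by Psca, Sprr2f and Sprr2d, carried 5 of 10 cornifying squamous markers (Krt13, Sprr1b, Krtdap, Sbsn and Tgm1), and is likewise called cornifying squamous-like. The cluster also carried the luminal duct markers Krt19, Krt7 and Cldn4 at least 2-fold above the other barcodes. The cytokine genes Cxcl3, Ppbp and Il1a were also among its 10 leading genes. It held 84.0% of the S100a9, 80.5% of the S100a8, 62.5% of the Defb14, 59.0% of the Spink5 and 51.9% of the S100a7a UMIs of the library, the last from 14 of 27 UMIs. A UMI of S100a8 was found in 12 and one of S100a9 in 19 of its 199 barcodes. The single barcode described above was among them, with 105 of the 169 S100a8 and 154 of the 257 S100a9 UMIs of the cluster.

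Lcn2 at day 11 was not limited to these barcodes, which held 10.2% of its UMIs. It was highest in cluster 7 (8400 CPM, led by the kallikrein genes Klk1b11 and Klk1 and by Crisp3), followed by the cornifying squamous-like cluster (7490 CPM) and cluster 3 (4158 CPM, led by Sectm1b and Ifitm1). The lowest levels were those of cluster 11 (414 CPM, median of 759 UMIs per barcode) and of the cycling-like cluster 10 (476 CPM). Lcn2 thus differed 20.3-fold between clusters, and what free RNA in the droplets adds to these levels was not tested.

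**Figure D5:**
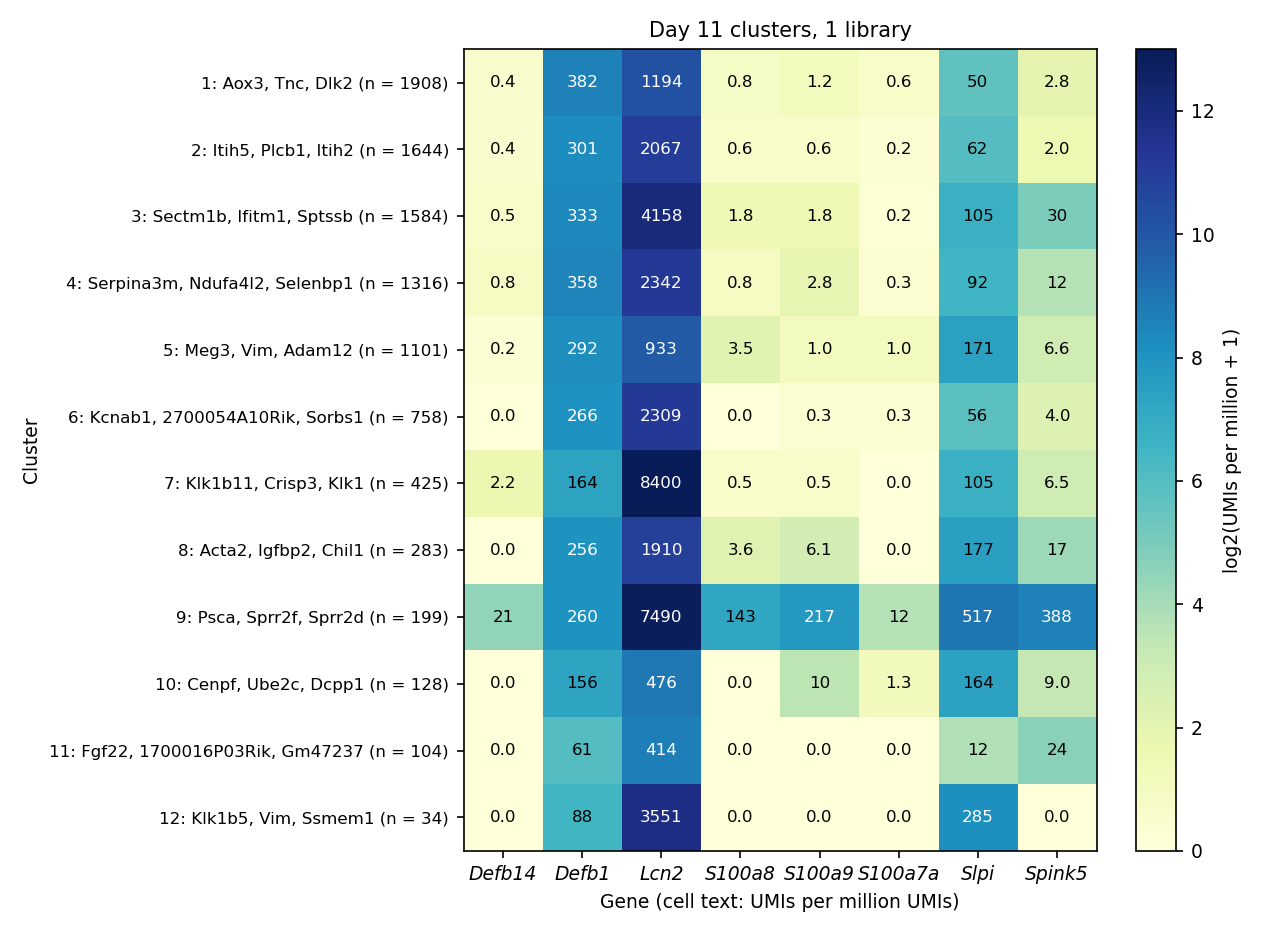
Levels of the 8 genes in 12 clusters of the day 11 library. Rows are clusters with their leading genes and number of barcodes, cell text gives CPM, and colour gives the log2 of that level plus 1. Lcn2 is present in every row, from 414 to 8400, while S100a8, S100a9, Spink5, Slpi and Defb14 peak in cluster 9.

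The cornifying squamous-like clusters of the 7-day control and the 11-day library were defined separately, and their levels are set side by side. Defb14 stood at 360 CPM at day 7 and 21.1 CPM at day 11, S100a7a at 8.86 and 11.8 CPM, Spink5 at 604 and 388 CPM, Slpi at 795 and 517 CPM, and Defb1 at 468 and 260 CPM. Lcn2 stood at 25.1 CPM at day 7 and at 7490 CPM at day 11. S100a8 stood at 8.86 and 143 CPM and S100a9 at 48.7 and 217 CPM, and without the richest barcode S100a8 stood at 6.02 and 54.8 CPM and S100a9 at 37.7 and 88.2 CPM.

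In tissue, also clustered alone, cluster 8 (48 barcodes, led by Retnlg and Ccr7) carried all 7 macrophage and monocyte markers and held 290 S100a8 and 303 S100a9 UMIs (895 and 935 CPM). These are the numbers that the single barcode described above held.

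The members were also compared with a wider list of 72 antimicrobial genes and their regulators, of which 69 were among the genes counted. In both irradiation comparisons 14 genes of this list passed the minimums, and 0 were 1.5-fold higher or lower, where 2.63% and 1.53% of all genes were after photons and 3.05% and 1.52% after protons. The highest ratio in both was that of Cebpd, a C/EBP factor, at 0.31 for photons and 0.57 for protons. Cebpb, another C/EBP factor, was the lowest after photons (-0.39) and stood at 0.07 after protons. Wfdc2, a whey acidic protein like Slpi, stood at -0.36 and -0.37, and the serine protease inhibitor Serpinb1a at -0.29 and -0.54.

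At day 11, where all genes were shifted, 10 of the 21 genes of the wider list that passed were at least 1.5-fold higher and 6 lower, beside 62.2% and 9.57% of all genes, with a median log2 ratio of 0.55 against 0.97 over all genes. Wfdc18 was counted at 300 CPM against 2.60 CPM in the day 7 control, Ltf (lactoferrin, which binds iron) at 57.6 CPM from 1839 UMIs against 5 UMIs, and Tlr4, the receptor for bacterial lipopolysaccharide, at 57.5 CPM against 6 UMIs. The lowest were S100a14 (-3.16), S100a6 (-1.84) and Cebpb (-1.12). In tissue, where 7 of 20 genes were higher and 13 lower beside 6.28% and 86.6% of all genes, Wfdc12 reached 2983 CPM against 4.81 CPM in the control, and Lyz2 (lysozyme) 128 CPM against 1 UMI.

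Genes whose levels followed the members most closely were sought over 39 sums of barcodes by cluster and library, with at least 50 barcodes each, among 8896 genes. These sums share libraries and depth, and tissue sums stand far from organoid sums, so the correlations describe and were not tested. Defb14 was most like Sprr2h (Pearson r = 0.99), Rbp2 (0.99), Sprr2i, Sprr2f and Cnfn (0.98 for each), most of them cornified envelope genes. Spink5 was most like Tmprss11b (0.97), Krt13 (0.97), Tmprss11e, Sbsn and Dmkn, and the genes most like Defb1 included Krt5 (0.99), Serpinb5, Krt17 and Sdc1. Those most like Slpi included Crabp2, Gsta4, S100a14 and Cstb (0.95 to 0.96), and S100a7a was most like Sprr2h, Sprr2f, Rbp2 (0.94 to 0.95), Clic3 and Defb14 (both 0.94). S100a8 was most like Psca (0.93), Sprr2d, S100a9, Tmprss11a and 2300002M23Rik, and S100a9 most like Tmprss11a, 2300002M23Rik, Psca (0.91 for each), Lce3c and Crct1 (0.90 for both). Lcn2 was most like Rpl36al, Orm1 (0.94 for both), Rpl27, Eya2 and Rpl13a, none of which was among the genes most like another member. Between members, r was highest for Defb14 with S100a7a (0.94) and for Defb1 with Slpi (0.93), and lowest for Defb14 with Lcn2 (-0.09).

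Pairs of members were also counted within single barcodes thinned to 1000 UMIs. In the photon library Defb14 and Slpi were found together in 338 of 8893 barcodes against 323 from the product of their shares, and Slpi and Spink5 in 300 against 265. S100a8 and Spink5, the pair furthest above its product in that library, were together in 22 against 13.8. In the control library Defb14 and Spink5 were together in 19 of 2557 barcodes against 10.5, and Slpi and Spink5 in 24 against 27.6. At day 11 Slpi and Spink5 were together in 17 of 9334 barcodes against 9.18, and S100a8 and S100a9 in 4 barcodes against 0.0174. At day 7 S100a8 and S100a9 were together in 0 control barcodes against 0.352, 3 photon barcodes against 2.93 and 0 proton barcodes against 1.13. Joint counts thus lay from 0.871 to 1.85 times the product for Slpi with Spink5 over the organoid libraries, and the pairs at day 11 rest on few barcodes.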

How the data were processed

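Single-cell libraries of mSGOs and gland tissue were analysed, with groups taken from the labels. The values deposited by the authors are UMI counts, whole numbers per gene and barcode, in 1 matrix a library. The submitters' processing notes name Cell Ranger 5 and mm10, the study's methods name GRCm39, and the headers name software version 3.0.1 (day 7, tissue) and 7.0.0 (day 11). Whether introns were counted is not given in the sources used here. Gene coordinates and promoters were taken from RefSeq tables of GRCm38.p6.

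Barcodes with at least 200 genes and at most 5% mitochondrial UMIs were kept. Doublets were scored with Scrublet (scanpy 1.11.5), and the highest scores were removed up to 0.8% per 1000 barcodes in every library (378, 2674, 2559, 855 and 16 barcodes of control, photon, proton, day 11 and tissue). This had been listed as an alternative. It replaced the automatic threshold, which gave different numbers for the photon library under different numerical kernels. The study's limit of 2500 genes was run only as an alternative, since it left 193 to 245 day 7 barcodes.

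Counts were summed per library and scaled to CPM. Log2 ratios used a pseudocount of 1 CPM, and comparisons with day 11 used the 30406 genes in both lists. Intervals (95%) are exact Poisson for levels, conditional binomial for ratios and Clopper-Pearson for shares, and cover counting error only, as do floors of 3 counts. UMIs of one barcode are not independent draws, so the intervals are narrower than the true error. Background shares are of genes with at least 200 UMIs and 20 CPM. No test was run, as groups held 1 library each. The interval code was tested on simulated data with known ratios. Barcodes were clustered without the antimicrobial genes (2000 variable genes, 30 components, graph of shared neighbours among 15 exact ones, Leiden resolution 0.8, leidenalg 0.10.2). Organoid clusters were named from the list with most markers at 2-fold, if 3 or more, unless their median UMI count was far below that of the library. The graph replaced an approximate one, whose clusters changed with the numerical kernel.

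All members were named in every comparison of libraries. From the wider list, the 3 highest and 3 lowest ratios past both minimums were considered, and for each member the 5 genes with the highest correlation, of which some are not reported here. The members and lists were chosen with earlier results of these data known. The 12 alternatives fixed in advance of each ratio, and 1 added after the data had been seen, cover filters, doublets, depth, scaling, pseudocount and shared barcodes.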

Additional observations from a re-analysis of the deposited data

Results flagged for a closer look

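Defb14 was singled out because its ratios over the shared control pointed in opposite directions in the irradiated libraries. Photons gave a log2 ratio of 0.778 and protons one of -0.422, and neither 95% counting interval included 0. The difference between the radiation types was not tested, since each was 1 library. Among day 7 barcodes with at least 2500 genes the proton ratio was 0.431, and within the cornifying squamous-like cluster it was 0.0317.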

How the results depend on the processing

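The counts below are given without the share of all genes past 1.5-fold under the same setting, so they have no background. Counts of members at least 1.5-fold higher or lower moved by more than 1.5 times as follows. With equal weight per barcode, 3 members were higher after photons than in the control, and 1 was lower after protons than after photons. With at least 2500 genes per barcode, 4 members were higher after protons, 3 were higher and 2 lower at day 11, and 0 were higher in tissue. With at most 2500 genes, 2 were higher after protons and 1 was lower after protons than after photons. For protons against photons 1 member was lower over all deposited barcodes, without doublet removal, and with a mitochondrial limit of 10%, and 4 were lower among barcodes with 1% or more Malat1 UMIs. In tissue 1 member was higher over all deposited barcodes and 0 without the barcode richest in each gene, an alternative added after the data had been seen.

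Single members reversed. With at least 2500 genes, the log2 ratios at day 11 were 2.77 for S100a9 and 0.153 for Slpi, and those in tissue were -2.16 for S100a8 and -2.68 for S100a9. In tissue S100a9 stood at -0.223 over all deposited barcodes, Lcn2 at 0.0576 among barcodes with 1% or more Malat1 UMIs, and S100a8 at -2.70 and S100a9 at -3.09 without the richest barcode. Of ratios within 1.5-fold, that of S100a8 at day 11 turned from -0.223 to 2.90 with at least 2500 genes and also turned among barcodes with 1% or more Malat1 UMIs, and that of S100a9 after protons turned from -0.117 to 1.27 with at least 2500 genes. The causes were not tested, other than that the last alternative removes 1 barcode per library. Defb14, Lcn2, S100a7a and Spink5 kept their sign under all 13 alternatives both at day 11 and after photons.

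With at least 10 UMIs per gene and no CPM minimum, 4.24% of genes were 1.5-fold higher after photons, 2.39% lower after protons and 14.6% higher in tissue. Clusters with a member at least 1.5-fold above the average of all barcodes numbered 0 at resolution 0.4 in place of 1 for all day 7 barcodes, and 1 at resolution 0.4 and 7 at 1.2 in place of 4 for those with Malat1. With an approximate neighbour graph, tried first, no cluster of all day 7 barcodes could be named, while a cornifying squamous-like one was found among those with Malat1. No paired analysis was possible because each group held 1 library. Depth limits the scarce members, such as S100a8 with 124 UMIs in the control and S100a7a with 27 at day 11.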
